A study of Homo sapiens with 4 samples.

Results

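Nuclear-encoded subunits of the mitochondrial respiratory chain were compared between cisplatin-resistant and wild-type SKOV3 cells, 2 RNA-seq libraries of each. SKOV3 is a long-established line of human ovarian carcinoma cells that carries an amplified ERBB2 gene. The subunits were chosen by gene symbol: 39 genes of the 65988 gene rows in the count table. They comprise 14 subunits of complex I, 4 of complex II, 6 of complex III, 10 of complex IV and 5 of complex V, the ATP synthase. NDUFA4, first named as a complex I subunit and later placed in complex IV, is counted with complex IV.

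The resistant cells had been through 6 cycles of cisplatin over 5 months, with the drug applied for 4 hours at a concentration that increased between cycles and then withheld for 3 weeks. Wild-type cells are the parental line. Both were harvested in log growth without drug, and polyadenylated RNA was sequenced. The labels describe 1 selection with no mention of a repeat, and no line passaged for as long without the drug was analysed here, so resistance and divergence of the line cannot be told apart. The libraries of a group are described as biological replicates without naming separate cultures, so p-values measure only the spread between these libraries, which may be technical. In bulk RNA, fewer cells making a transcript and less of it per cell cannot be told apart either.

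The respiratory chain sits in the inner mitochondrial membrane. Complex I takes electrons from NADH and complex II takes them from succinate, both pass them to coenzyme Q, and complex III hands them through cytochrome c to complex IV, which reduces oxygen. Complexes I, III and IV pump protons, and the ATP synthase uses the gradient to make ATP. Most subunits are encoded in the nucleus and imported, while a core set is encoded in mitochondrial DNA. In carcinoma cells the chain also supports growth by regenerating NAD+ and by accepting electrons from pyrimidine synthesis.

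NRF1, the ETS-family factor GABPA and YY1 are transcription factors known for binding promoters of these nuclear genes. RefSeq promoter windows on GRCh38.p14, from 250 bases before to 50 bases after a transcript start, were matched for 31 of the 39 genes. NDUFA4, NDUFB5, SDHC, UQCRB, CYC1, COX6C, ATP5B and ATP5D were not matched. The letters GCGCATGC (NRF1 core) were found on either strand in 6 of the 31 genes (19.4%), against 1006 of 27305 genes with a window (3.68%). These 27305 were not restricted to expressed or protein-coding genes, nor matched in base composition, so the contrast need not be particular to the chain. CCGGAAG (ETS core) was found in 11 (35.5%), against 3321 of all genes (12.2%), and AAGATGGC (YY1 core) in 6 (19.4%), against 962 of all genes (3.52%). At least one of these letter strings stood in the windows of 17 of the 31 genes (54.8%), against 4803 of all genes (17.6%). The upstream 250 bases of 4 genes are printed because NRF1 and GABPA transcripts were both higher in resistant cells, and these windows show how the strings are placed. The YY1 transcript was not called, and values of all 3 factors are given further on. COX6B1, which was lower in resistant cells, holds the ETS core 12 bases before the start (chr19:35648073-35648322, plus strand). SDHB (chr1:17054033-17054282, minus strand) and COX5B (chr2:97645812-97646061, plus strand) hold an NRF1 and an ETS core, and ATP5C1 (chr10:7787927-7788176, plus strand) holds overlapping NRF1 cores on both strands. These 3 genes did not pass the test. Capitals mark the NRF1 and ETS strings on either strand, and the last base of each run is next to the start. A further ETS core of COX5B begins at position -5 and runs past the printed end.
COX6B1: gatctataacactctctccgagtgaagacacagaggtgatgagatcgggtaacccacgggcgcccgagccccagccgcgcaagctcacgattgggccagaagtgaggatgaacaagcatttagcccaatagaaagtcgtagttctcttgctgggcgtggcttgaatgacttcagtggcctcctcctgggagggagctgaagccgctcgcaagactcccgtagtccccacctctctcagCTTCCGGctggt
SDHB: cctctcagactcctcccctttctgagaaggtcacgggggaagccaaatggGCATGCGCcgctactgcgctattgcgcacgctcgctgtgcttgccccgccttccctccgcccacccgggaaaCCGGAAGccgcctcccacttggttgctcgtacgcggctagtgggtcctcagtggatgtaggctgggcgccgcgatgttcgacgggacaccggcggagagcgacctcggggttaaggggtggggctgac
COX5B: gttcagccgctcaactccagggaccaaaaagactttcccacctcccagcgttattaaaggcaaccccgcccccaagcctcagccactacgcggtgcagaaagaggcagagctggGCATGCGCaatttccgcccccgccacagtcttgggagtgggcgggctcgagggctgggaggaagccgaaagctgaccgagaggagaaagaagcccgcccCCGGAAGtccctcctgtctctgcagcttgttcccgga
ATP5C1: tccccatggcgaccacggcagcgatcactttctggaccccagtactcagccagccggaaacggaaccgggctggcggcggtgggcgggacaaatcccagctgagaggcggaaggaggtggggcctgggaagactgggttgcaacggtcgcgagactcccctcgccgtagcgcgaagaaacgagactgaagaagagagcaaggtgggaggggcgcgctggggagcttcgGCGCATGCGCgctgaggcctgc
A match of letters is a description and does not show binding. Of the 8 genes that had a window and were called between the groups, 3 held any of the strings: UQCRC1 a YY1 core, and COX6B1 and ATP5A1 an ETS core.

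Library totals were 65259794 and 79592903 counts for resistant replicates 1 and 2, and 43658695 and 53502349 for wild-type replicates 1 and 2. Levels are in CPM, a read count scaled by TMM-adjusted library size, and 1 CPM stands for 42.6 to 83.1 counts. Of 18602 genes tested with edgeR's quasi-likelihood test, 45.3% were called at a Benjamini-Hochberg adjusted p under 0.05, 22.1% higher and 23.2% lower in resistant cells. All 6 carcinoma epithelium markers were measured, with summed levels of 3479 and 2824 CPM in resistant cells and 6248 and 6840 CPM in wild-type cells. Of these KRT8, KRT18, EPCAM and ERBB2 were called lower in resistant cells. KRT19 (log2 -0.00) and PAX8 (log2 0.56) were not called, and PAX8 is 96.2% covered by another gene. ERBB2 alone held 2841 and 2074 CPM of these sums in resistant cells and 5248 and 5769 CPM in wild-type cells. Leukocyte markers (PTPRC, CD3E, CD68 and CD14) summed to 0.135 and 0.529 CPM in resistant cells and 0.0235 and 0.915 CPM in wild-type cells. CD3E was at 0 in the resistant libraries and PTPRC and CD68 at 0 in the wild-type libraries. CD68 is wholly covered by other genes, so its counts do not show absence. PECAM1, CDH5 and VWF of endothelium summed to 0.81 and 0.974 CPM in resistant cells, against 10.6 and 8.37 CPM in wild-type cells. COL1A1, COL1A2, PDGFRB and LUM of fibroblasts summed to 28.1 and 30.6 CPM in resistant cells and 26.5 and 36.2 CPM in wild-type cells. Within these sums COL1A1 and LUM were called higher (log2 0.84 and 2.64), and COL1A2 (log2 -2.34), PECAM1 and VWF were called lower in resistant cells. The part of these shifts in the results on the chain was not tested.

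Most respiratory chain subunits were close between resistant and wild-type cells, and few were called higher in resistant cells. Of 36 tested subunits 2 rose, both of complex IV (NDUFA4 and COX6C), and 9 fell: NDUFV1 and NDUFS8 of complex I, SDHA of complex II, UQCRC1, UQCRC2 and UQCRFS1 of complex III, COX6B1 of complex IV, and ATP5A1 and ATP5B of the ATP synthase. The 11 called subunits are 30.6% of those tested, below the 45.3% called over the whole table. The 9 of 36 called lower are near the share of all tested genes called lower, 23.2%. The 2 of 36 called higher are below the share of all tested genes called higher, 22.1%. The median log2 change of the tested subunits was -0.09, with 12 above and 24 below 0, against 0.003 over all tested genes. Their median absolute change was 0.20, against 0.51 over all tested genes. A change of at least 2-fold was fitted for 2 subunits, NDUFA4 and NDUFV1, and for 25.7% of all tested genes. The 2 groups of libraries did not overlap for 19 of the 36 subunits, where 73.6% of all tested genes did not overlap. The tested genes were not matched in level to the subunits, so these contrasts need not be particular to the chain. Limited to genes with a mean of at least 5 CPM, 5974 of 11097 were called. Scaling by library totals alone gave 4 subunits higher, and leaving out resistant replicate 1 gave 7.

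**Figure D1:**
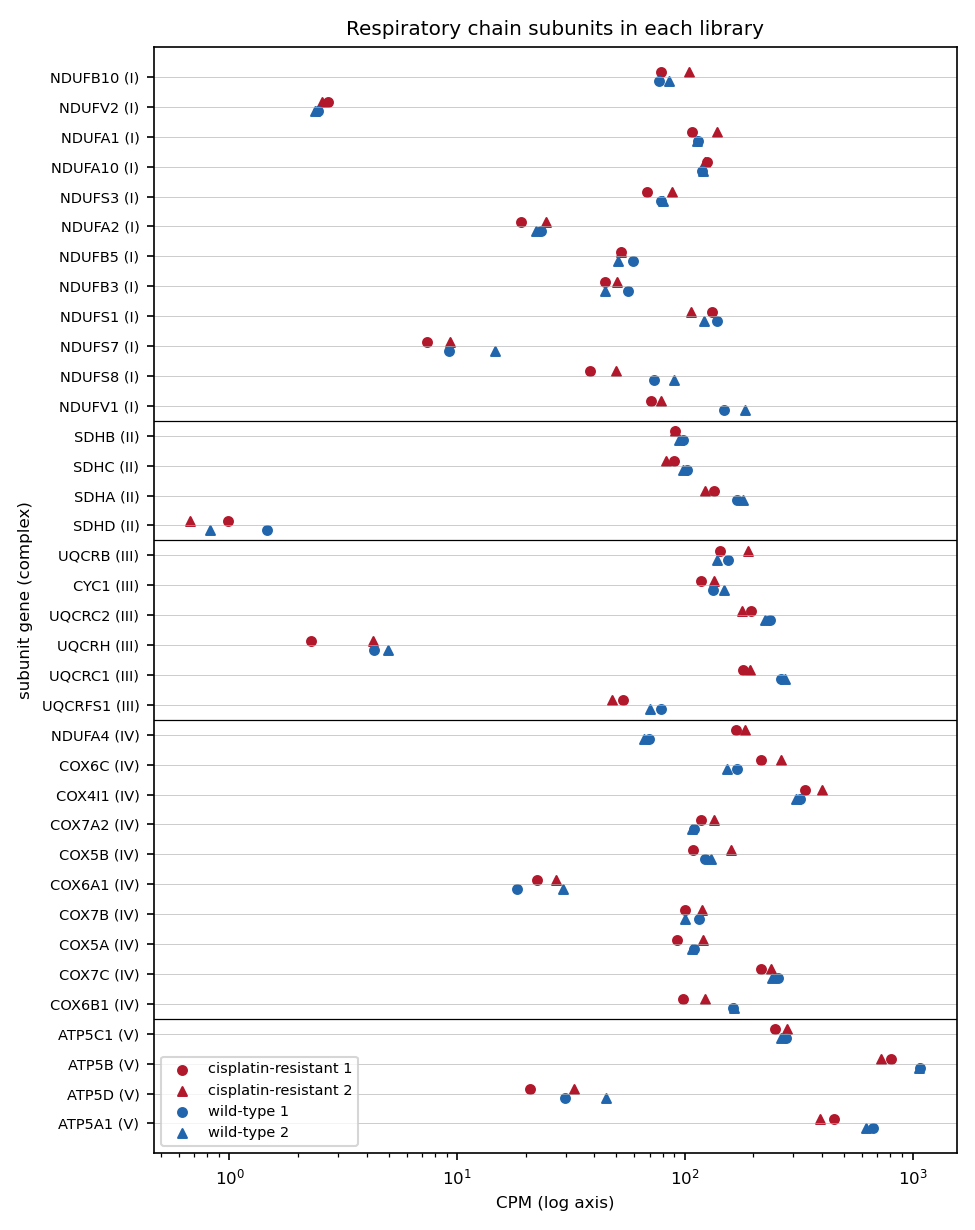
Level of each tested subunit in each library, in CPM on a log axis, grouped by complex; red points are cisplatin-resistant and blue points wild-type libraries, circles replicate 1 and triangles replicate 2. NDUFA4 has both resistant libraries (168 and 184 CPM) far to the right of the wild-type libraries (69.5 and 66.1 CPM), NDUFV1 shows the opposite order, and most other genes have red and blue points side by side.

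The remaining 25 tested subunits did not pass, with log2 changes between -0.51 and 0.23, of which 21 were within 0.25 of 0. For 22 of them the 95% interval of the change lay within 2-fold in either direction, and for NDUFS7, SDHD and UQCRH it reached 2-fold lower. NDUFA9, NDUFB8 and ATP5O were listed at 0 in all libraries and count as not measured: each lies wholly within the span of other genes in GENCODE release 29, and how the authors' counting treated such reads is not given in the sources used here. NDUFA2, NDUFS3, NDUFS7, NDUFV2, SDHD and COX6A1 were tested but are over 50% covered by other genes, so their levels are less certain. The 15 genes of mitochondrial DNA were also listed at 0, so the mitochondrially encoded subunits of the same complexes were not measured.

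Complex I had 2 of 12 tested subunits lower (16.7% called, where 45.3% of all tested genes were) and a median log2 change of -0.07. NDUFV1 (ENSG00000167792), the subunit that binds FMN and oxidises NADH, had 71.1 and 78.6 CPM in resistant cells, against 149 and 183 CPM in wild-type cells. The resistant libraries both lay at less than the lower wild-type value, and the log2 change was -1.15 ± 0.13 (SE), 0.451 times the wild-type level (edgeR adjusted p = 3.72e-05). NDUFS8, an iron-sulfur subunit on the path of electrons to coenzyme Q, had 38.4 and 49.9 CPM in resistant cells, against 73.3 and 89.3 CPM in wild-type cells. The groups did not overlap and the log2 change was -0.88 ± 0.15 (edgeR adjusted p = 0.000753). NDUFS7, which carries the last iron-sulfur cluster before coenzyme Q, had 7.38 and 9.33 CPM in resistant cells and 9.25 and 14.6 CPM in wild-type cells. Here the groups overlapped, and the log2 change of -0.51 ± 0.22 missed the threshold (edgeR adjusted p = 0.0811). It was called lower without resistant replicate 2, without wild-type replicate 1, with no filter on low counts and with the replicate block, and its span is 52% covered by other genes.

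The other electron-carrying and core subunits of complex I did not pass the test. NDUFS1, the largest iron-sulfur subunit, had 131 and 106 CPM in resistant cells and 139 and 121 CPM in wild-type cells, a log2 change of -0.13 ± 0.13. NDUFS3, a core subunit of the arm that reaches into the matrix, had 68.1 and 88.0 CPM in resistant cells and 78.2 and 80.0 CPM in wild-type cells, a log2 change of -0.02 ± 0.14. The wild-type values of NDUFS3 lie between the resistant ones, and the 95% intervals of the log2 change run from -0.42 to 0.16 for NDUFS1 and from -0.32 to 0.28 for NDUFS3. NDUFV2, an iron-sulfur partner of NDUFV1, was counted at 2.70 and 2.56 CPM in resistant cells and 2.44 and 2.38 CPM in wild-type cells, with 99.7% of its span covered by other genes. Accessory subunits, which surround the core and help it assemble, had log2 changes from -0.09 (NDUFB3) to 0.17 (NDUFB10), with NDUFB5 at -0.07, NDUFA2 at -0.06, NDUFA10 at 0.05 and NDUFA1 at 0.12. NDUFB10 had 78.7 and 104 CPM in resistant cells and 77.2 and 85.1 CPM in wild-type cells, and was called higher with resistant replicate 1 left out (log2 0.36, edgeR adjusted p = 0.0267).

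In complex II the flavoprotein SDHA, which oxidises succinate, was lower while the other subunits did not pass. That is 1 of 4 tested (25% called, where 45.3% of all tested genes were). SDHA had 134 and 122 CPM in resistant cells, against 169 and 180 CPM in wild-type cells. Both resistant values lay below both wild-type values, and the log2 change was -0.45 ± 0.11 (edgeR adjusted p = 0.00699). Without wild-type replicate 2 the call of SDHA was lost (log2 -0.40, edgeR adjusted p = 0.0843), and 3 of its named pseudogenes together held 10459 counts, so reads may be split between copies. The iron-sulfur subunit SDHB had 90.7 and 90.3 CPM in resistant cells and 98.0 and 94.5 CPM in wild-type cells, a log2 change of -0.09 ± 0.11. The membrane anchor SDHC had 89.5 and 82.3 CPM in resistant cells and 102 and 98.3 CPM in wild-type cells, a log2 change of -0.22 ± 0.11 (edgeR adjusted p = 0.13). Its partner anchor SDHD was counted at 0.99 and 0.674 CPM in resistant cells and 1.46 and 0.818 CPM in wild-type cells, and is 99.7% covered by other genes.

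Complex III had 3 of 6 subunits lower (50% called, where 45.3% of all tested genes were), with a median log2 change of -0.40. UQCRFS1, the Rieske iron-sulfur protein, had 53.5 and 47.8 CPM in resistant cells, against 78.5 and 70.3 CPM in wild-type cells. Its log2 change was -0.55 ± 0.12 (edgeR adjusted p = 0.00368), and the groups did not overlap. UQCRC1, one of the core proteins on the matrix side, had 180 and 193 CPM in resistant cells, against 265 and 276 CPM in wild-type cells. That log2 change was -0.54 ± 0.11 (edgeR adjusted p = 0.00202), with each pair of libraries closer to each other than to the other group. The second core protein, UQCRC2, had 195 and 178 CPM in resistant cells, against 237 and 226 CPM in wild-type cells, a log2 change of -0.31 ± 0.11 (edgeR adjusted p = 0.0384). The groups of UQCRC2 did not overlap, but its call was lost without resistant replicate 2, without either wild-type replicate, with no filter on low counts and with library totals only, with edgeR adjusted p-values up to 0.274.

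The other complex III subunits did not pass the test. Cytochrome c1 (CYC1), which passes electrons to cytochrome c, had 118 and 134 CPM in resistant cells and 133 and 148 CPM in wild-type cells, a log2 change of -0.15 ± 0.12. UQCRB, a subunit near the site where coenzyme Q binds, had 143 and 189 CPM in resistant cells and 154 and 138 CPM in wild-type cells. The groups overlapped, with the lowest value of UQCRB in a wild-type and the highest in a resistant library, and it was called higher only in the fit without resistant replicate 1 (log2 0.38, edgeR adjusted p = 0.0126). UQCRH, the hinge protein beside cytochrome c1, had 2.28 and 4.28 CPM in resistant cells and 4.30 and 4.99 CPM in wild-type cells. The resistant libraries of UQCRH differed from each other by 0.91 on the log2 scale, more than the fitted change of -0.50 ± 0.29 (edgeR adjusted p = 0.183). Without resistant replicate 2 it was called lower (log2 -1.02). UQCRH has near-identical copies in the genome, so its reads may be split between them.

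**Figure D2:**
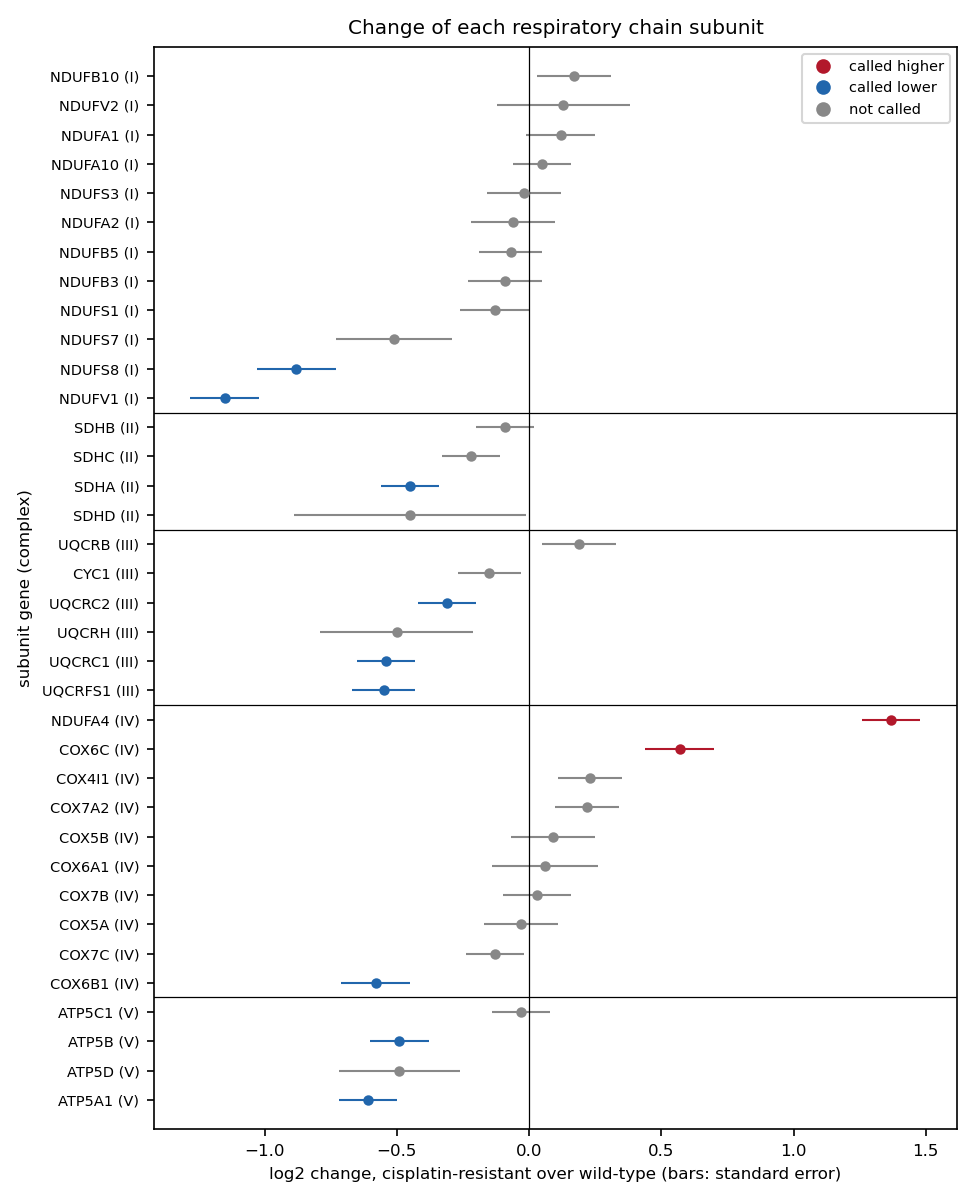
Log2 change of each tested subunit, cisplatin-resistant over wild-type, with bars of 1 standard error from edgeR, grouped by complex; red genes were called higher, blue genes lower and grey genes were not called. NDUFA4 stands at 1.37 and NDUFV1 at -1.15, the called genes of complexes II, III and V lie between -0.61 and -0.31, and most grey points lie within 0.25 of 0.

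Among the 39 subunits, complex IV was the one complex with calls in both directions: 2 of 10 rose and 1 fell. That is 30% called, where 45.3% of all tested genes were, and the median log2 change was 0.07. Further subunits of complex I and of the ATP synthase, outside the 39, were also called in both directions. NDUFA4 (ENSG00000189043) had 168 and 184 CPM in resistant cells, against 69.5 and 66.1 CPM in wild-type cells. Both resistant values exceeded both wild-type values by more than the spread within either group, and the log2 change was 1.37 ± 0.11, or 2.59-fold (edgeR adjusted p = 3.23e-06). COX6C, a small membrane subunit, had 216 and 264 CPM in resistant cells, against 170 and 153 CPM in wild-type cells. It rose by 0.57 ± 0.13 on the log2 scale, or 1.49-fold (edgeR adjusted p = 0.00344). COX6B1, which faces the intermembrane space and contacts the neighbouring monomer of the dimer, had 97.7 and 122 CPM in resistant cells, against 163 and 164 CPM in wild-type cells. It fell by 0.58 ± 0.13 on the log2 scale (edgeR adjusted p = 0.00329), and none of these 3 genes overlapped between the groups. With NDUFA4 counted in complex I instead, complex I had 1 of 13 higher and 2 lower, and complex IV had 1 of 9 higher and 1 lower.

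COX4I1, the largest nuclear-encoded subunit of complex IV and a site of its regulation by ATP, had 338 and 400 CPM in resistant cells and 321 and 309 CPM in wild-type cells. COX7A2, the widely expressed form of a small subunit, had 118 and 134 CPM in resistant cells and 110 and 107 CPM in wild-type cells. Both genes lay higher in each resistant library, yet neither passed, with log2 changes of 0.23 ± 0.12 and 0.22 ± 0.12 (edgeR adjusted p = 0.134 and 0.147). They were called higher with library totals only, a scaling that moved the median of all genes to 0.10, and without resistant replicate 1. COX5B, a zinc-binding subunit on the matrix side, had 109 and 159 CPM in resistant cells and 123 and 130 CPM in wild-type cells, with the wild-type values between the resistant ones. The log2 change of COX5B was 0.09 ± 0.16, and it was called higher without resistant replicate 1 (log2 0.34). Accessory subunits COX6A1, COX7B, COX5A and COX7C had log2 changes of 0.06, 0.03, -0.03 and -0.13, and COX6A1 is 95.9% covered by another gene. COX7C had 216 and 239 CPM in resistant cells and 257 and 242 CPM in wild-type cells, which do not overlap, while for the other 3 the groups overlapped.

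In the ATP synthase the 2 subunits of the catalytic ring were lower. They are 50% of the 4 tested, where 45.3% of all tested genes were called. ATP5A1 (alpha subunit) had 451 and 394 CPM in resistant cells, against 669 and 623 CPM in wild-type cells. ATP5B, the beta subunit that holds the catalytic sites, had 802 and 727 CPM in resistant cells, against 1084 and 1067 CPM in wild-type cells. Neither gene overlapped between groups, and the log2 changes were -0.61 ± 0.11 for ATP5A1 and -0.49 ± 0.11 for ATP5B (edgeR adjusted p = 0.00127 and 0.00363). ATP5C1, the gamma subunit that turns inside the ring, had 248 and 281 CPM in resistant cells and 277 and 265 CPM in wild-type cells, a log2 change of -0.03 ± 0.11 with overlapping groups. The delta subunit gene ATP5D had 20.8 and 32.5 CPM in resistant cells and 29.7 and 45.2 CPM in wild-type cells. Replicate 2 of ATP5D was higher than replicate 1 by 0.65 on the log2 scale in resistant cells and by 0.61 in wild-type cells, and its log2 change of -0.49 ± 0.23 missed the threshold (edgeR adjusted p = 0.0987). ATP5D was called lower in the same 4 alternative fits as NDUFS7. ATP5O, which links the stalk to the ring, was not measured.

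Per kilobase of annotated exon, merged over all annotated transcripts of a gene, levels differed widely within complexes. The ranking depends on that length. NDUFA1 (766 bases) and NDUFA10 (9517 bases) had mean levels of 123 and 124 CPM in resistant cells, but 161 and 13 CPM per kb. Over the 30 tested subunits at most 50% covered, ATP5B was highest, at 329 CPM per kb in resistant cells and 463 CPM per kb in wild-type cells. NDUFA1, a small membrane-arm subunit, led complex I with 161 CPM per kb in resistant cells and 148 CPM per kb in wild-type cells. UQCRH was lowest, at 2.33 CPM per kb in resistant cells and 3.30 CPM per kb in wild-type cells. The median level was 13.9 CPM per kb in resistant cells and 25.4 CPM per kb in wild-type cells for 8 complex I subunits, while the 6 of complex III had medians of 26.4 CPM per kb in resistant cells and 32.8 CPM per kb in wild-type cells. The 9 of complex IV had medians of 77.0 CPM per kb in resistant cells and 65.7 CPM per kb in wild-type cells. These medians describe whichever gene lies in the middle and carry no test.

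The called subunits lie at separate places in the genome, apart from NDUFV1 and NDUFS8, which are both on the long arm of chromosome 11 (GRCh38, chr11:67605653-67612554 and chr11:68030617-68036644, plus strand). Of 81 tested protein-coding genes within 2 Mb of NDUFV1, 52 were called lower and 6 higher, with a median log2 change of -0.78. Around NDUFS8, in a window that overlaps it, 45 of 64 were lower and 3 higher, with a median of -0.86. The genes next to NDUFV1 were GSTP1 (-0.95) and NUDT8 (-2.04), and those next to NDUFS8 were ALDH3B1 (-0.02) and TCIRG1 (-1.32). Both subunits changed in the direction of most genes around them.

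NDUFA4 (chr7:10931951-10940256, minus strand) has few tested neighbours: 7 within 2 Mb, of which 3 were higher and 1 lower, with a median log2 change of 0.54. PHF14, next to NDUFA4 on one side, rose by 1.01 on the log2 scale (edgeR adjusted p = 8.45e-05), while ICA1 on the other side had -0.29 (edgeR adjusted p = 0.175). Around COX6B1 (chr19:35648223-35658861) 29 of 73 genes were lower and 1 higher, with a median of -0.34. Around ATP5B (chr12:56638175-56646068) 21 of 78 genes were higher and 11 lower, with a median of 0.20, and around SDHA (chr5:218241-256700) 7 of 17 were higher and 1 lower, with a median of 0.21. ATP5B and SDHA thus fell where the surrounding median was above 0, as did UQCRC2 (chr16:21952660-21983660), whose neighbours had a median of 0.12. Around UQCRC1 (chr3:48599002-48610976) 28 of 86 genes were lower and 10 higher, with a median of -0.20, and UQCRFS1 (chr19:29205321-29213541) had 5 tested neighbours with a median of -0.14. Around ATP5A1 (chr18:46080248-46104334) 3 of 16 genes were higher and 4 lower, with a median that rounds to -0.00, and around COX6C 5 of 18 were higher and 4 lower, with a median of 0.17. Of the 11 called subunits, 7 had the sign of their neighbours' median, SDHA, UQCRC2 and ATP5B had the opposite sign, and ATP5A1, with a median near 0, was counted with neither. For NDUFA4, NDUFV1 and NDUFS8 that median was at least 0.5 in size. The part of the surrounding region in these changes was not tested. Neighbours were summarised for the 39 subunits only. Of genes named further on, COX19, CYCS and COA1, all called higher, lie on chromosome 7 as NDUFA4 does. ATP5L, FOXRED1, TMEM126B and MRPL48, all called lower, lie on chromosome 11 as NDUFV1 and NDUFS8 do. OXA1L (chr14:22766522-22773041) and MRPL52 (chr14:22829879-22835037), both called lower, are close to each other. On chromosome 7, MDH2 was called lower, and is named after its value was seen.

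**Figure D3:**
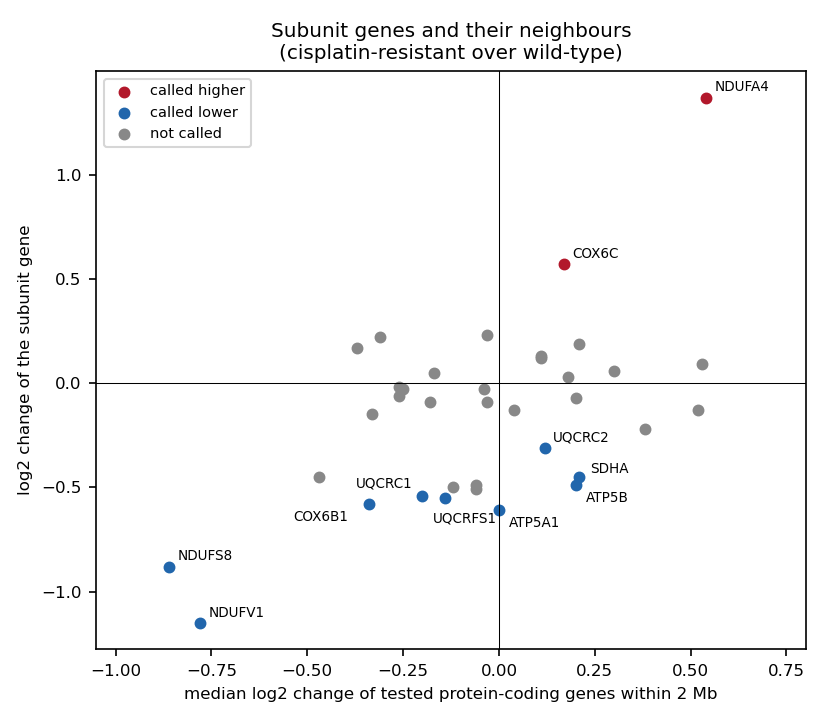
Log2 change of each tested subunit (vertical axis) against the median log2 change of tested protein-coding genes within 2 Mb of it (horizontal axis), cisplatin-resistant over wild-type; red points were called higher, blue points lower and grey points were not called. NDUFV1 (-1.15 at a median of -0.78) and NDUFS8 (-0.88 at -0.86) lie at the lower left and NDUFA4 (1.37 at 0.54) at the upper right, while ATP5B and SDHA lie below 0 with medians of 0.20 and 0.21.

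Further subunits of the same complexes, outside the 39, changed in both directions. Of 41 tested further subunits and isoforms, counting the inhibitor ATPIF1, 4 were higher and 7 lower (ATPIF1 among them), with a median log2 change of 0.02. The share called was 26.8%, against 45.3% of all tested genes. In complex I the accessory subunits NDUFA5 and NDUFB6 rose by 0.43 and 0.36 on the log2 scale (edgeR adjusted p = 0.0326 and 0.0499), and NDUFA3 fell by 0.61 (edgeR adjusted p = 0.00723). The calls of NDUFA5, NDUFB6 and NDUFA3 were lost without wild-type replicate 2, and those of NDUFA5 and NDUFB6 also without resistant replicate 2. NDUFB6 is 77.4% covered by other genes and was called in 8 of 13 fits, with the highest adjusted p, 0.242 by edgeR, without wild-type replicate 1. NDUFA11 had 0.165 and 0.108 CPM in resistant cells, against 0.587 and 0.740 CPM in wild-type cells, at levels of few reads and with 98.3% of its span covered by other genes, and its call was lost without either resistant replicate or wild-type replicate 2. The 3 further subunits of complex III did not pass, with log2 changes from -0.74 to 0.22. USMG5, a small membrane subunit of the ATP synthase, rose by 0.47 (edgeR adjusted p = 0.033), and ATP5L, wholly covered by other genes, fell by 0.83 (edgeR adjusted p = 0.000279). ATPIF1, the inhibitor that blocks ATP hydrolysis by the synthase, had 76.7 and 102 CPM in resistant cells, against 117 and 128 CPM in wild-type cells. It fell by 0.46 ± 0.14 on the log2 scale (edgeR adjusted p = 0.0217), a call held in 11 of the 14 fits run and lost without resistant replicate 1 (edgeR adjusted p = 0.111) or wild-type replicate 2 (edgeR adjusted p = 0.104). USMG5 lost its call without resistant replicate 2 or wild-type replicate 2.

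Isoforms of complex IV subunits differ between tissues. COX7A1, the isoform typical of heart and skeletal muscle, had 0.315 and 0.385 CPM in resistant cells, against 12.9 and 14.7 CPM in wild-type cells, a log2 change of -5.28 ± 0.24 (edgeR adjusted p = 2.75e-08). Its ubiquitous counterpart COX7A2 was at over 100 CPM in every library. NDUFA4L2, the hypoxia-responsive paralogue of NDUFA4, had 0.915 and 1.73 CPM in resistant cells and 1.17 and 1.77 CPM in wild-type cells, overlapping levels with a log2 change of -0.15 ± 0.39 (edgeR adjusted p = 0.78). COX4I2, the other form of COX4I1, was below the filter with at most 0.117 CPM in any library. COX7A2L, which joins complexes III and IV into supercomplexes, had 102 and 112 CPM in resistant cells and 129 and 119 CPM in wild-type cells (log2 -0.21 ± 0.11, edgeR adjusted p = 0.15).

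Of 51 tested factors that assemble the chain 13 were higher and 8 lower (41.2% called, where 45.3% of all tested genes were), with a median log2 change of 0.18. Of 23 tested complex IV assembly factors 8 were higher and 4 lower (52.2% called), with a median log2 change of 0.34. COX19, a copper-handling protein, had 23.2 CPM in both resistant libraries, against 9.53 and 9.47 CPM in wild-type cells, a log2 change of 1.29 ± 0.15 (edgeR adjusted p = 3.79e-05), though 73.7% of its span is covered by other genes. PET100 also rose (log2 1.38 ± 0.51, edgeR adjusted p = 0.0446), at under 1 CPM in all libraries, is 97.3% covered, and was called in 6 of 12 fits. With genes over 50% covered left out, 5 complex IV assembly factors were higher and 2 lower. Among these, SCO1, which delivers copper to complex IV, had 37.7 and 32.4 CPM in resistant cells, against 17.3 and 18.3 CPM in wild-type cells, and is named after its value was seen. The membrane insertase OXA1L fell by 0.87 (edgeR adjusted p = 0.000145), and SCO2, wholly covered by other genes, fell by 0.64 (edgeR adjusted p = 0.00446).

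Of 15 complex I assembly factors 2 were higher (NUBPL by 0.62 and COA1 by 0.53 on the log2 scale) and 2 lower (FOXRED1 at -0.83 and TMEM126B at -0.45). The share called was 26.7%, against 45.3% of all tested genes. Of 9 complex II and III factors 2 were higher (SDHAF4 by 0.53 and UQCC1 by 0.36) and 2 lower (SDHAF1 at -0.71 and BCS1L at -0.68), or 44.4% called. Of 4 tested ATP synthase assembly factors TMEM242 was called, higher by 0.63 (25% called). BCS1L inserts the Rieske protein UQCRFS1 into complex III, and SDHAF1 helps to mature SDHB. NUBPL, SDHAF4 and UQCC1 lost their calls without wild-type replicate 2, and so did SDHAF4 without resistant replicate 2, UQCC1 and TMEM126B without wild-type replicate 1, and TMEM126B without resistant replicate 1.

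**Figure D4:**
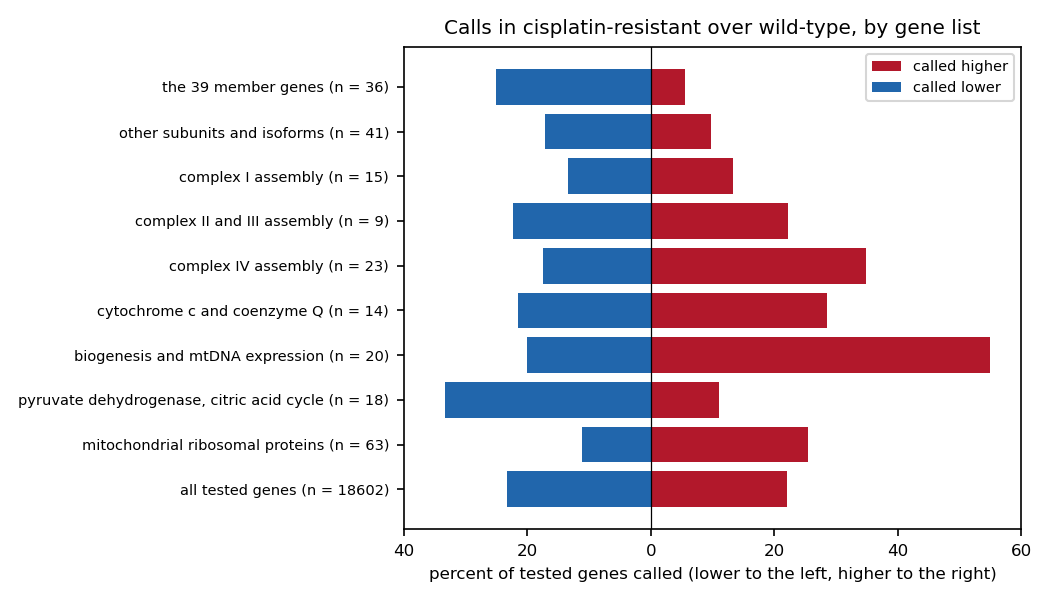
Percent of tested genes called in cisplatin-resistant over wild-type cells, for the 39 subunits, for related gene lists and for all 18602 tested genes; red bars to the right are genes called higher and blue bars to the left genes called lower. The subunits have 2 of 36 higher and 9 of 36 lower, while the list of biogenesis and mtDNA expression has 11 of 20 higher and the mitochondrial ribosomal proteins 16 of 63.

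Regulators of mitochondrial biogenesis and of mitochondrial DNA expression mostly changed, in both directions. Of 20 tested, 11 were higher and 4 lower (75% called, where 45.3% of all tested genes were), with a median log2 change of 0.35. NRF1 had 55.9 and 54.0 CPM in resistant cells, against 33.1 and 35.6 CPM in wild-type cells, a log2 change of 0.68 ± 0.12 (edgeR adjusted p = 0.000965). TFAM, which packages and helps transcribe mitochondrial DNA, had 110 and 97.4 CPM in resistant cells, against 58.4 and 52.2 CPM in wild-type cells, a log2 change of 0.91 ± 0.12 (edgeR adjusted p = 0.000139). PPARGC1A, a coactivator of NRF1, ERR-alpha and other factors, had 2.24 and 2.19 CPM in resistant cells, against 13.3 and 14 CPM in wild-type cells. None of these overlapped between groups, and PPARGC1A fell by 2.63 ± 0.18 on the log2 scale (edgeR adjusted p = 7.91e-07). POLRMT, the RNA polymerase of mitochondria, fell by 0.52 ± 0.14 (edgeR adjusted p = 0.0122), a call lost without wild-type replicate 2 (edgeR adjusted p = 0.147).

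Further regulators bear on the promoter strings and are named after their values were seen. YY1 was not called: it had 143 CPM in both resistant libraries and 150 and 138 CPM in wild-type cells (log2 -0.01 ± 0.11, edgeR adjusted p = 0.962). GABPA had 79.0 and 71.6 CPM in resistant cells, against 55.2 and 54.1 CPM in wild-type cells, and rose by 0.46 ± 0.12 (edgeR adjusted p = 0.00763), and its partner GABPB1 rose by 0.47 (edgeR adjusted p = 0.00671). The related coactivator PPARGC1B fell by 0.50 and ESRRA, which encodes ERR-alpha, fell by 0.46 (edgeR adjusted p = 0.0264 and 0.042). Both lost their calls without wild-type replicate 2. For GABPA, GABPB1 and TFB2M the alternatives were not followed gene by gene. The biogenesis list had 6 genes higher without wild-type replicate 1 and 4 without wild-type replicate 2, and 1 lower without wild-type replicate 2. Of the 4 genes whose upstream bases are printed, SDHB, COX5B and ATP5C1 were not called and COX6B1 was lower. These 4 are a pick from the 17 genes with a string, and any link between the factors and the subunits was not tested.

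**Figure D5:**
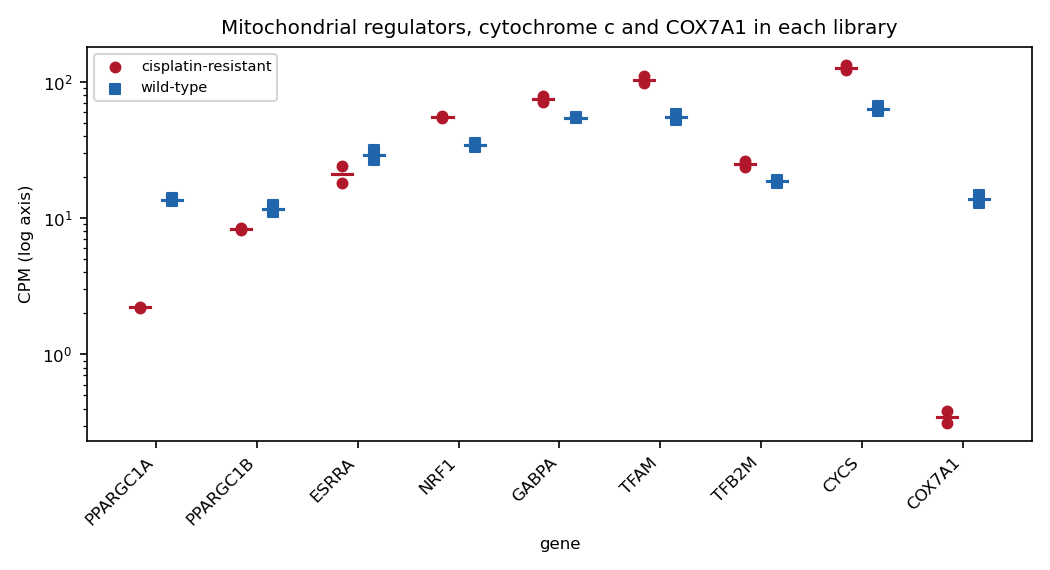
Levels of 7 regulators of mitochondrial genes, of cytochrome c (CYCS) and of COX7A1 in each library, in CPM on a log axis; red circles are cisplatin-resistant and blue squares wild-type libraries, and lines mark the mean of 2. PPARGC1A (2.24 and 2.19 CPM in resistant cells, against 13.3 and 14 CPM in wild-type cells) and COX7A1 (0.315 and 0.385 CPM in resistant cells, against 12.9 and 14.7 CPM in wild-type cells) are lower in resistant cells, while NRF1, GABPA, TFAM, TFB2M and CYCS are higher.

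Cytochrome c and coenzyme Q carry electrons between the complexes. CYCS, the electron carrier between complexes III and IV, had 121 and 133 CPM in resistant cells, against 66.4 and 60.6 CPM in wild-type cells, a log2 change of 1.00 ± 0.12 (edgeR adjusted p = 4.76e-05). Of 14 genes for these carriers and for coenzyme Q synthesis 4 were higher and 3 lower (50% called, where 45.3% of all tested genes were). COQ7, a hydroxylase of coenzyme Q synthesis, rose by 0.55, and the kinase-like proteins COQ8A and COQ8B fell by 1.28 and 0.74 on the log2 scale.

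Pyruvate dehydrogenase and the citric acid cycle feed electrons to the chain. Of their 18 genes 2 were higher and 6 lower (44.4% called, where 45.3% of all tested genes were), with a median log2 change of -0.16. Mitochondrial isocitrate dehydrogenase IDH2 had 33.9 and 37.9 CPM in resistant cells, against 77.8 and 82.9 CPM in wild-type cells, and the pyruvate dehydrogenase subunit PDHB had 34.7 and 39.8 CPM in resistant cells, against 77.5 and 80.0 CPM in wild-type cells. IDH3A rose by 0.69 and DLD by 0.44 on the log2 scale, the call of DLD being lost without resistant replicate 1 or wild-type replicate 2. Of 63 tested mitochondrial ribosomal proteins, which translate the mitochondrially encoded subunits, 16 were higher and 7 lower (36.5% called), with a median log2 change of 0.08. MRPL13 and MRPS18C rose by 0.66 and 0.65, and MRPL52 and MRPL48 each had a log2 change of -0.80. MRPS18C is 74% covered by other genes and lost its call without wild-type replicate 2 (edgeR adjusted p = 0.123). The ribosomal list had 6 to 8 genes higher without one wild-type replicate, and 11 to 14 lower with a replicate block, without resistant replicate 2 or without wild-type replicate 1.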

How the data were processed

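Polyadenylated RNA of 4 libraries was sequenced with a kit that keeps strand, per the labels' protocols. The deposited counts are whole reads per gene, not normalized. STAR 2.5.1a, HTSeq, DESeq and GRCh38.p7 are named, per the submitters' processing notes. The gene annotation is not given in the sources used here, nor are the counting settings, so reads of overlapping genes or near-identical copies may be lost or split. A second table deposited by the authors holds a normalized signal, equal to the count divided by one factor per library (1.132 and 1.418 for resistant replicates 1 and 2, 0.7247 and 0.8794 for wild-type replicates 1 and 2), and served only as an alternative scaling.

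Counts were tested with edgeR 4.0.16 (R 4.3.3): TMM factors, filterByExpr (minimum count 10, minimum total 15), quasi-likelihood F test with group as the only term, Benjamini-Hochberg adjustment over all tested genes and calls under 0.05. All log2 changes are resistant over wild-type. The biological coefficient of variation was 13%. A standard error is the size of the log2 change divided by the square root of F, and 95% intervals use the t distribution with edgeR's total degrees of freedom. The procedure was tested on simulated data with far fewer changed genes than were called here, as many raised as lowered, at a fixed dispersion. That simulation cannot show how the scaling behaves when many genes change. Positions, exon lengths and covered spans come from GENCODE release 29. Tables and figures used Python 3.11.15, pandas 2.3.3 and matplotlib 3.10.9.

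The subunits and lists were chosen with earlier results of these data known. Called subunits are given in full. Of each further list the 2 largest called rises and falls are named, plus CYCS, PPARGC1A, NRF1, TFAM, NDUFA4L2, COX4I2, COX7A2L and ATPIF1. Neighbours are tested protein-coding genes within 2 Mb. Alternatives were DESeq2 1.42.0, limma-voom (limma 3.58.1), other scalings and filters, a replicate block, genes over 50% covered left out, and each library left out in turn.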

Additional observations from a re-analysis of the deposited data

How the results depend on the processing

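Among 13 alternatives, NDUFA4, COX6C, NDUFV1, NDUFS8, UQCRC1, UQCRFS1, COX6B1, ATP5A1 and ATP5B were called in the same direction in every fit. UQCRC2 was called in 9 of 14 fits (the reported one included) and SDHA in 13 of 14. The count of subunits called higher was 4 with library totals only, where COX4I1 and COX7A2 were added, the median of all genes moved to 0.10, and 56.7% of the calls over all genes were higher, against 48.8% in the reported fit. With one library left out it ranged from 2 to 7, the 7 without resistant replicate 1, where NDUFB10, UQCRB, COX4I1, COX5B and COX7A2 were added; the cause was not tested. The count called lower ranged from 7 to 11. The median log2 change of the subunits ranged from -0.19 to 0.00, and genes called over the whole table from 5974 with a mean of at least 5 CPM to 9646 with the replicate block.

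Replicate numbers were not shown to pair libraries: the difference of library 1 and library 2 correlated at 0.0797 between groups over 18602 genes. With the number as a block, 2 subunits were higher and 11 lower, with NDUFS7 and ATP5D added. SDHD, NDUFV2 and UQCRH had mean levels under 5 CPM in both groups, with the largest standard errors among the subunits (0.25 to 0.44).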

Other observations

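The 2 libraries of a group differed by a median of 0.217 on the log2 scale over the tested subunits in resistant cells, and by 0.0877 in wild-type cells. In resistant cells 24 of the 36 tested subunits were higher in replicate 2 than in replicate 1, and in wild-type cells 14 were. A difference of at least 0.5 was seen in resistant cells for UQCRH (0.91), ATP5D (0.65), SDHD (-0.56) and COX5B (0.54), and in wild-type cells for SDHD (-0.83), COX6A1 (0.68), NDUFS7 (0.66) and ATP5D (0.61), as replicate 2 over replicate 1.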
